A study of Mus musculus with 3 samples.

Results

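Oxidative phosphorylation is carried out by complexes I to V of the inner mitochondrial membrane, and the genes described here encode their nuclear-encoded subunits and the paralogs that share their gene symbols. Members were chosen by symbol alone, as those beginning with Nduf and a letter from a, b, c, s or v and a digit, the Sdh genes a to d, and those beginning with Uqcr, Cox4 to Cox8 or Atp5. This gave 81 of the 18193 genes that had a probe set paired with 1 gene symbol. Complex I had 35 members, complex II 4, complex III 8, complex IV 17 and complex V 17. Further genes that fit the rule in RefSeq but had no such probe set, among them Ndufa11, Ndufs6 and Cox7b, were not analysed here. Subunits encoded by mitochondrial DNA had 0 genes measured.

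Gene expression was measured on 3 Affymetrix arrays, 1 for each genotype, with RNA of bone marrow cells that were positive for Sca-1 and negative for lineage markers, a fraction in which haematopoietic progenitors are enriched. The mice were 10 weeks old and of strain C57BL/6J. They were wild type, or they carried the transgene written in the labels as Tg(Ly6a-KDM1A*v2, as Line 6 or as Line 3. KDM1A (LSD1) is a histone demethylase, and Ly6a encodes Sca-1, so the gene named in the construct is also the gene of the antigen used to isolate the cells. The targeted gene Kdm1a measured 2104 in the wild type, 2575 for Line 6 and 2979 for Line 3, with 0.29 for Line 6 and 0.50 for Line 3 on the log2 scale defined below, and whether its probe set detects the transgene's transcript was not tested. The design text speaks of 2 transgenic mice, and the number of mice behind each array is otherwise not given in the sources used here. With 1 array for each genotype the difference of either line from wild type has no replicate check and no test, and both lines were compared with the same wild type array. The RNA came from bulk cells, in which fewer cells of a type and less RNA per cell cannot be told apart. Values are intensities on a linear scale, and differences are taken between values of log2(intensity + 16), so that those of dim genes are understated.

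Complex I oxidises NADH and complex II oxidises succinate, and both pass electrons through ubiquinone to complex III, from there through cytochrome c to complex IV, and on to oxygen. Complexes I, III and IV move protons across the membrane, and complex V, the ATP synthase, uses the return of these protons to make ATP. Haematopoietic stem cells are known to lean on glycolysis while quiescent, and progenitors that enter division use oxidative phosphorylation more.

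Nuclear genes of the respiratory chain are known targets of NRF1, of the ETS-family factor GABP and of YY1, so the member promoters were searched for one fixed sequence of each factor on both strands. RefSeq (assembly GRCm38.p6) gave a promoter of 250 bases before to 50 bases after the gene start for 66 of the 81 members. The sequence GCATGCGC (NRF1), which can overlap its own reverse complement, was found in 9 of 66 members (13.6%), against 3.05% of 27025 genes with a promoter and 3.93% of 17491 protein-coding genes. The sequence AAGATGGC (YY1) was found in 9 members (13.6%), against 3.19% and 3.57%. The sequence CCGGAAGT (ETS) was found in 5 members (7.58%), against 4.31% and 5.69%. The letters TATAAA were found in 8 members (12.1%), against 15.7% and 14.8%. At least 1 of the first 3 sequences was present in 22 members (33.3%), against 9.91% and 12.3%, and the median GC content of the promoters was 58.8% in members, 53.3% in all genes and 57.3% in protein-coding genes. A match describes the letters in this window and is not a measured binding site.

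The promoters below run 5′ to 3′ on the gene strand over 120 bases, 110 before the gene start and 10 from it, and capitals mark the NRF1, ETS and YY1 sequences on either strand. One promoter per complex is shown, that of the member with the highest Line 3 difference among those with such a sequence in the window, followed by Cox8b, a muscle paralog of complex IV whose promoter held none of the 3. They lie at chr2:90904712-90904831 (minus strand), chr4:140961161-140961280 (plus strand), chr10:80406812-80406931 (minus strand), chr19:7217607-7217726 (minus strand), chr15:102671038-102671157 (minus strand) and chr7:140900437-140900556 (minus strand). The capitals mark the ETS letters in Ndufs3 and Cox8a, the NRF1 letters in Sdhb and Atp5g2, and one of each in Uqcr11.
Ndufs3: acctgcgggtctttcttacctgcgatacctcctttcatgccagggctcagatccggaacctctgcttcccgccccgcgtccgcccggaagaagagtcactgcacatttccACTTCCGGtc
Sdhb: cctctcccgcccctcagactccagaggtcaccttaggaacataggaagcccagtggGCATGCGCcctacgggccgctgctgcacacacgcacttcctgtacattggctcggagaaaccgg
Uqcr11: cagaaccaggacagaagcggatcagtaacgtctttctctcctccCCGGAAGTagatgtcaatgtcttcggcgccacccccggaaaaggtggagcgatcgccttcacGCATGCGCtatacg
Cox8a: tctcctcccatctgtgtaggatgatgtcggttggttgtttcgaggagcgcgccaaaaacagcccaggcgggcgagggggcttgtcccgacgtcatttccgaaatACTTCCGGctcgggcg
Atp5g2: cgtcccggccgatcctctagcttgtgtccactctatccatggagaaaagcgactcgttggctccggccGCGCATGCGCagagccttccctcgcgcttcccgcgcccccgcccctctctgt
Cox8b: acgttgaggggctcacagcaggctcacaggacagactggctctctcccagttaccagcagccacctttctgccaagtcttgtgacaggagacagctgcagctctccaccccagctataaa

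The 22 members with at least 1 of the 3 sequences had a median difference of 0.036 in Line 6 and 0.19 in Line 3, and the 44 members with none had 0.070 and 0.14. These medians lay close together in both lines, and the order of the 2 sets was opposite in the lines. Of those with a sequence, 20 of 22 lay above wild type in Line 3, and of those with none 37 of 44 did (54.0% of all genes).

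Most members were a little above wild type in Line 3, and few were far from it in either line. In Line 3, 69 of the 81 members lay above wild type, where 54.0% of all genes did, and the median member difference was 0.15 against 0.044 for all genes. The member median stayed above 0 in Line 3 under each of 13 processing settings, and exceeded the all-gene median by 0.028 to 0.15. In Line 6, 54 members lay above wild type (55.2% of all genes), with a median of 0.062 that turned to -0.17 when each array was centred on its own median. That centring moved the median of all genes in Line 6 from 0.044 to -0.19, so that members lay 0.018 above the all-gene median either way, and over the 13 settings this gap ran from -0.019 to 0.10 and was above 0 in 11 of them. Between the lines, 64 members were higher in Line 3 than in Line 6 (50.9% of all genes), with a median difference of 0.10 against 0.0078 for all genes.

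The Line 3 array held the highest of the 3 values for 59 members (72.8%), against 37.9% of all genes. Line 6 held the highest value for 13 members and wild type for 9. The order wild type, Line 6, Line 3 from lowest to highest was found for 41 members. Above wild type in both lines were 51 members, and 9 were below it in both. A further 18 were above it in Line 3 and below it in Line 6, and 3 were the reverse. These counts for Line 6 against wild type move with the centring given above, under which 10 members rather than 54 lay above wild type. Apart from the highest value in Line 3, the patterns of this paragraph were not counted over all genes. A high or low reading on the only wild type array shifts the differences of both lines together, for any gene. The counts on the same side of wild type in both lines are therefore not shown to be particular to the members.

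Differences past 2-fold were few. In Line 6, 2 members passed 2-fold in either direction (6.94% of all genes), in Line 3 2 did (8.62%), and between the lines 1 did (4.58%). The 3 genes behind these counts, Cox4i2, Cox8b and Cox8c, were dim. By their brightest probe sets 78 members stayed within 2-fold in all 3 comparisons. At a limit of 1.2-fold, 8 members were higher in Line 6 (28.5% of all genes) and 6 lower (22.3%). In Line 3, 24 were higher (32.5%) and 5 lower (25.9%), and Line 3 exceeded Line 6 for 13 members (22.7%) and lay below it for 3 (23.6%). The share of members past 1.2-fold upward in Line 3 was thus near that of all genes, while members past it downward were rare.

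The filter on dim genes, a value at or above the array median on at least 1 array, was passed by 76 members and 10864 genes. Cox4i2 passed it through wild type alone, 75 members were at or above the median on all 3 arrays, and 5 were below it on every array. Among genes that passed, the Line 3 median was 0.15 for members and 0.12 for all. In Line 3, 68 of 76 members lay above wild type (60.6% of genes that passed). In Line 6 both medians were 0.062, and 52 of 76 members lay above wild type (57.6%). The counts were also read among bright genes. A mean intensity at or above percentile 75 (977) was reached by 71 members and 4549 genes. Among these, 66 of 71 members lay above wild type in Line 3 (56.7% of bright genes), 22 were at least 1.2-fold higher (28.0%) and 0 at least 1.2-fold lower (21.1%). In Line 6, 50 of 71 lay above wild type (54.0%), 4 were 1.2-fold higher (15.5%) and 0 lower (17.3%). Under centring on array medians, 6 of the 71 lay above wild type in Line 6 (18.0% of bright genes) and 12 were at least 1.2-fold lower (42.1%). Between the lines, 59 of 71 were higher in Line 3 (56.2%), 10 of them by 1.2-fold or more (14.9%), and 0 were 1.2-fold lower (11.5%). Bright members thus lay in a narrow band in Line 3, from -0.15 to 0.56, most of it above 0.

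**Figure D1:**
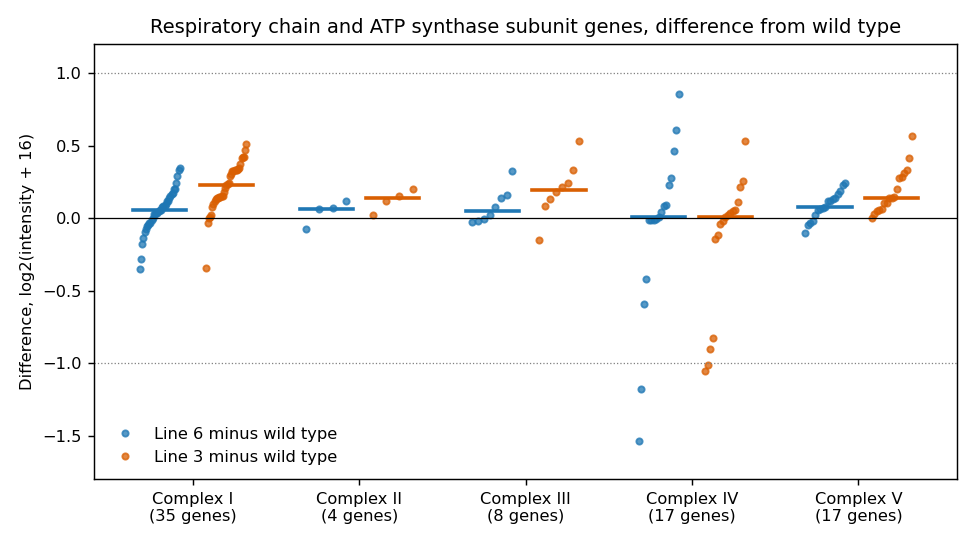
Difference from wild type on the log2(intensity + 16) scale for each of the 81 subunit genes, by complex, in Line 6 (blue) and Line 3 (orange). Each point is 1 gene, points are sorted within a complex, horizontal bars are medians and dotted lines mark 2-fold. Most Line 3 points of complexes I, II, III and V lie above 0, with medians of 0.23, 0.14, 0.20 and 0.14, and complex IV has both the widest spread and a Line 3 median of 0.010. Centring on array medians turns the Line 6 medians of every complex negative and that of complex IV in Line 3 too.

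Complex I, NADH:ubiquinone oxidoreductase, had a median difference of 0.23 in Line 3, where 33 of 35 members lay above wild type (54.0% of all genes). In Line 6, 24 of 35 lay above it (55.2% of all genes) with a median of 0.056, which centring on array medians turned to -0.18. The Line 3 median stayed above 0 under all 13 settings, from 0.19 to 0.28. Between the lines, 32 of 35 were higher in Line 3 (50.9% of all genes), the median being 0.17.

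The core subunits, which hold the flavin and the iron-sulfur clusters of the peripheral arm, had 6 measured genes. Ndufs3, a core subunit near the quinone site, measured 2214 in the wild type, 2813 for Line 6 and 3158 for Line 3. It was lowest in wild type and highest in Line 3, with differences of 0.34 for Line 6 and 0.51 for Line 3, or 1.27-fold and 1.42-fold. Ndufs7, an iron-sulfur subunit beside the quinone, measured 3766 in the wild type, 4327 for Line 6 and 5059 for Line 3 and had the same order, with 0.20 for Line 6 and 0.42 for Line 3. A second Ndufs7 probe set measured 1035 in the wild type, 999 for Line 6 and 1182 for Line 3. Line 6 was the lowest array there, with -0.049 for Line 6 and 0.19 for Line 3. Ndufv1, which binds NADH and the flavin, measured 3087 in the wild type, 3405 for Line 6 and 3897 for Line 3, with 0.14 for Line 6 and 0.33 for Line 3. The iron-sulfur subunit Ndufs8 had differences of 0.12 for Line 6 and 0.29 for Line 3, and Ndufv2, another, had 0.032 for Line 6 and 0.13 for Line 3. Ndufs1, the largest subunit, went -0.073 for Line 6 and 0.15 for Line 3. By their brightest probe sets all 6 core genes lay above wild type in Line 3 (54.0% of all genes). In Line 6, 5 of 6 did (55.2%), a count that centring on array medians lowers.

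Accessory subunits surround this core and serve its assembly and stability. Ndufa10, of the membrane arm, measured 2959.9 in the wild type, 3403 for Line 6 and 4108 for Line 3 and was highest in Line 3, with 0.20 for Line 6 and 0.47 for Line 3. Ndufa12, of the peripheral arm, measured 3022 in the wild type, 3206 for Line 6 and 4046 for Line 3, and the difference of 0.42 in Line 3 stood beside 0.085 in Line 6. Ndufa2, in the NADH-oxidising module, measured 5767 in the wild type, 7273 for Line 6 and 7215 for Line 3. Both lines lay above wild type by a like amount for that gene (0.33 for Line 6 and 0.32 for Line 3). Ndufs5, of the membrane arm, measured 1589 in the wild type, 1403 for Line 6 and 1838 for Line 3 and was lowest in Line 6, with -0.18 for Line 6 and 0.21 for Line 3.

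Few complex I genes were lower in both lines by their brightest probe set. Ndufb4, a membrane-arm accessory subunit, was dim at 156 in the wild type, 126 for Line 6 and 119 for Line 3, with differences of -0.28 for Line 6 and -0.35 for Line 3. It was read by 1 probe set, and RefSeq names the like genes Ndufb4b and Ndufb4c, and whether this probe set also reads them was not tested. Ndufa3, another accessory subunit, measured 6966 in the wild type, 6514 for Line 6 and 6799.9 for Line 3, so that all 3 arrays lay close together and the differences were -0.097 for Line 6 and -0.035 for Line 3. A second Ndufa3 probe set gave -0.14 for Line 6 and 0.060 for Line 3, the latter opposite in sign. Ndufa1, also a membrane-arm accessory subunit, was -0.057 in Line 6 and level with wild type in Line 3, at 7292 on both arrays. The remaining complex I members ran from -0.14 (Ndufb3) to 0.29 (Ndufb1) in Line 6 and from 0.0066 (Ndufb7) to 0.42 (Ndufb2) in Line 3, all 4 of them accessory subunits.

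The symbol Ndufa4 counts here with complex I, although its protein is now placed in complex IV. Ndufa4 measured 4389.8 in the wild type, 4963 for Line 6 and 5592 for Line 3 and was higher in both lines (0.18 for Line 6 and 0.35 for Line 3). Its paralog Ndufa4l2, known for its induction by hypoxia, measured 56.9 in the wild type, 41.1 for Line 6 and 74.1 for Line 3, below the median of all probe sets on every array. Line 6 was the lowest and Line 3 the highest for Ndufa4l2, with -0.35 for Line 6 and 0.31 for Line 3 and 0.66 between the lines.

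Complex II, succinate dehydrogenase, is also an enzyme of the tricarboxylic acid cycle and is encoded wholly in the nucleus. All 4 members lay above wild type in Line 3 (54.0% of all genes), with a median of 0.14. The catalytic flavoprotein Sdha measured 6293 in the wild type, 6601 for Line 6 and 6843 for Line 3, with 0.069 for Line 6 and 0.12 for Line 3. The iron-sulfur subunit Sdhb measured 2753 in the wild type, 2611 for Line 6 and 3064 for Line 3, so that Line 6 was the lowest and Line 3 the highest, with -0.076 for Line 6 and 0.15 for Line 3. The membrane anchors differed from each other in their order by their brightest probe sets. Sdhc measured 2789 in the wild type, 2913 for Line 6 and 3214 for Line 3 and was highest in Line 3 (0.063 for Line 6 and 0.20 for Line 3), whereas Sdhd measured 4421 in the wild type, 4801 for Line 6 and 4486 for Line 3 and was highest in Line 6 (0.12 for Line 6 and 0.021 for Line 3). A second Sdhd probe set measured 2887 in the wild type, 2977 for Line 6 and 3015 for Line 3. Its differences were 0.044 for Line 6 and 0.062 for Line 3, the same order as Sdhc. The complex II median of 0.066 in Line 6 turned to -0.17 under centring on array medians.

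Complex III, ubiquinol:cytochrome c oxidoreductase, had a median of 0.20 in Line 3 with 7 of 8 members above wild type (54.0% of all genes). The median in Line 6 was 0.048, which turned to -0.19 under centring. Uqcr11, a small accessory subunit, measured 1985 in the wild type, 2487 for Line 6 and 2881 for Line 3 and differed by 0.32 for Line 6 and 0.53 for Line 3, or 1.25-fold and 1.45-fold. The core protein Uqcrc2 measured 3991 in the wild type, 4453 for Line 6 and 5019.8 for Line 3, with 0.16 for Line 6 and 0.33 for Line 3. Its partner core protein Uqcrc1 measured 3082 in the wild type, 3073 for Line 6 and 3495 for Line 3, so that wild type and Line 6 were nearly equal and Line 3 was higher by 0.18. The Rieske iron-sulfur protein Uqcrfs1, a catalytic subunit, measured 1615 in the wild type, 1705 for Line 6 and 1769 for Line 3, with 0.077 for Line 6 and 0.13 for Line 3.

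Among the small subunits, Uqcrh, the hinge protein beside cytochrome c1, measured 5811 in the wild type, 6396 for Line 6 and 6862 for Line 3, with 0.14 for Line 6 and 0.24 for Line 3. Uqcrb, which takes part in ubiquinone binding, measured 7793 in the wild type, 7674 for Line 6 and 7008 for Line 3 and was the one complex III gene lowest in Line 3, with -0.022 for Line 6 and -0.15 for Line 3. A second Uqcrb probe set measured 2433, 2047 and 2529.5 in the same order, so that Line 3 was the highest array there and Line 6 the lowest (-0.25 and 0.056). Uqcr10 and Uqcrq, both small accessory subunits, differed by -0.026 for Line 6 and 0.084 for Line 3 and by 0.020 for Line 6 and 0.21 for Line 3. Second probe sets of these genes gave other values too. For Uqcr10 it measured 478 in the wild type, 457 for Line 6 and 859 for Line 3, a Line 3 difference of 0.82. For Uqcrq it measured 260, 146 and 104 in the same order, a Line 3 difference of -1.20, so the direction for Uqcrq depended on the probe set.

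Complex IV, cytochrome c oxidase, had 9 of 17 members above wild type in each line. This was near the share of all genes (54.0% in Line 3 and 55.2% in Line 6). Its medians were 0.010 in Line 3 and 0.0051 in Line 6. Centring on array medians took these to -0.025 and -0.23, and the use of probe sets with the plain _at suffix took the Line 3 median to -0.092. Complex IV holds 7 of the 8 paralogs restricted to muscle, lung, testis or other tissues that are among the members, the other being Ndufa4l2. Without those 7 the 10 genes left had medians of 0.00050 for Line 6 and 0.038 for Line 3, of which 7 lay above wild type in Line 3.

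The ubiquitous genes that follow were near level over the arrays by their brightest probe sets. Cox4i1, the isoform found in most tissues, measured 6903 in the wild type, 7329 for Line 6 and 7023 for Line 3, with 0.086 for Line 6 and 0.025 for Line 3. Cox5a measured 8080.4 in the wild type, 8058 for Line 6 and 7862 for Line 3, and Cox5b, which binds zinc, measured 10123 in the wild type, 10020.1 for Line 6 and 10549 for Line 3. Both stayed within 0.059 of wild type in the lines by these probe sets. Further Cox5b probe sets above the median on all arrays gave 0.075 to 0.21 for Line 6 and 0.14 to 0.31 for Line 3. Those of Cox5a gave -0.016 to -0.0099 for Line 6 and -0.18 to -0.033 for Line 3. Cox6a1 (0.046 for Line 6 and 0.010 for Line 3), Cox6b1 (0.0051 for Line 6 and -0.016 for Line 3) and Cox6c (0.090 for Line 6 and 0.11 for Line 3), which are small nuclear-encoded subunits, lay within 0.11 of wild type. Cox7a2, the ubiquitous isoform of subunit VIIa, measured 9502 in the wild type, 9409 for Line 6 and 9850.1 for Line 3.

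Other ubiquitous genes departed from this. Cox7a2l, which joins complexes III and IV into supercomplexes, measured 6995 in the wild type, 8196 for Line 6 and 8113 for Line 3 and was higher in both lines by 0.23 for Line 6 and 0.21 for Line 3. Dimmer Cox7a2l probe sets gave 0.13 and 0.20 for Line 6 but 0.0088 and 0.058 for Line 3, so the size in Line 3 depended on the probe set. Cox8a, the ubiquitous subunit VIII, measured 2521 in the wild type, 2497 for Line 6 and 3008 for Line 3, so that Line 3 alone stood above the other arrays (-0.014 for Line 6 and 0.25 for Line 3). Cox7c, another small subunit, measured 302 in the wild type, 221 for Line 6 and 276 for Line 3 and was lowest in Line 6, with -0.42 for Line 6 and -0.12 for Line 3. By a further Cox7c probe set the differences were -0.31 for Line 6 and -0.37 for Line 3.

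By the brightest probe sets, paralogs accounted for every member past 1.5-fold in any comparison, 7 in all. Some second probe sets of ubiquitous genes, above the median on all arrays, passed 1.5-fold too. Among these were Uqcrq (-0.76 for Line 6 and -1.20 for Line 3), Ndufs4 (-0.80 for Line 6 and -0.45 for Line 3) and Ndufc1 (0.71 for Line 6 and 0.56 for Line 3). Cox4i2, the isoform known from lung and tied to oxygen-dependent regulation, measured 107 in the wild type, 26.6 for Line 6 and 49.97 for Line 3 and reached its array's median in wild type only. Wild type was the highest array, and the differences were -1.53 for Line 6 and -0.90 for Line 3. Cox8b, the heart and skeletal muscle isoform, measured 40.2 in the wild type, 8.84 for Line 6 and 11.1 for Line 3, with -1.18 for Line 6 and -1.05 for Line 3. Cox8c, the testis isoform, measured 42.1 in the wild type, 64.3 for Line 6 and 12.8 for Line 3, with 0.47 for Line 6 and -1.01 for Line 3 and -1.48 between the lines.

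Each of these genes had values near the pseudocount of 16 on at least 1 array, and no detection calls were part of the values used. With a pseudocount of 64 in place of 16 no member passed 2-fold in any comparison. A second Cox8c probe set, at 9.61, 2.02 and 6.31 in wild type, Line 6 and Line 3, had differences of -0.51 and -0.20, the first opposite in sign to the brighter probe set. Cox7b2, the testis isoform of subunit VIIb, measured 14.0 in the wild type, 3.96 for Line 6 and 0.921 for Line 3, with -0.59 for Line 6 and -0.83 for Line 3, all of it at or below the pseudocount. Cox7a1, the heart and muscle isoform of subunit VIIa, measured 63.4 in the wild type, 105 for Line 6 and 55.9 for Line 3 and was highest in Line 6, with 0.60 for Line 6 and -0.14 for Line 3 and -0.75 between the lines.

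Cox6a2 was the one paralog past 1.5-fold that lay above the array median on all 3 arrays. It is the heart and muscle isoform of subunit VIa and is also known to be expressed in plasmacytoid dendritic cells. Cox6a2 measured 639.7 in the wild type, 1169 for Line 6 and 657 for Line 3, so that Line 6 stood apart from the other arrays, with 0.85 for Line 6 and 0.037 for Line 3 and -0.82 between the lines. A second, dim probe set of Cox6a2 measured 95.8, 81.9 and 74.5 in wild type, Line 6 and Line 3, so that Line 6 was not above wild type there.

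Plasmacytoid dendritic cell genes, a list chosen after the data were seen, were also read. Siglech, a surface receptor of these cells, measured 1195 in the wild type, 2164 for Line 6 and 1048 for Line 3. Spib, a transcription factor of these and of B cells, measured 551 in the wild type, 1551 for Line 6 and 574 for Line 3, and the chemokine receptor Ccr9 measured 373 in the wild type, 682 for Line 6 and 378 for Line 3. These 3, picked from 7 after their values were seen, were highest in Line 6, as Cox6a2 was. Tcf4 and Klk1 were highest in Line 3 instead (0.54 for Line 6 and 0.64 for Line 3, and 0.46 for Line 6 and 0.71 for Line 3), and Bst2 was higher in both lines (0.74 for Line 6 and 0.65 for Line 3). The 7 listed genes measured had medians of 0.74 for Line 6 and 0.10 for Line 3, 7 of 7 and 6 of 7 above wild type, and summed to 4617 in the wild type, 8298 for Line 6 and 5917 for Line 3, with 6 of 7 above the array median on each array and Pacsin1 below it. B cell genes were higher in Line 6 as well, 8 of 9 by 2-fold or more, with summed intensities of 3551, 11364 and 4066 and 8, 9 and 7 of 9 above the array median, in the same order. Striated muscle genes were dim, with 2 of 9 above the array median on each array and sums of 483, 411 and 401, and Acta1, Myh4, Tnnt3 and Actn2 at 20.8 or less on every array. The part of any of these cell types in the Cox6a2 difference was not tested.

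Cox6b2, the testis isoform of subunit VIb, measured 1196 in the wild type, 1449.5 for Line 6 and 1737 for Line 3. It was the one paralog in the order wild type, Line 6, Line 3 from lowest to highest, with 0.27 for Line 6 and 0.53 for Line 3.

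**Figure D2:**
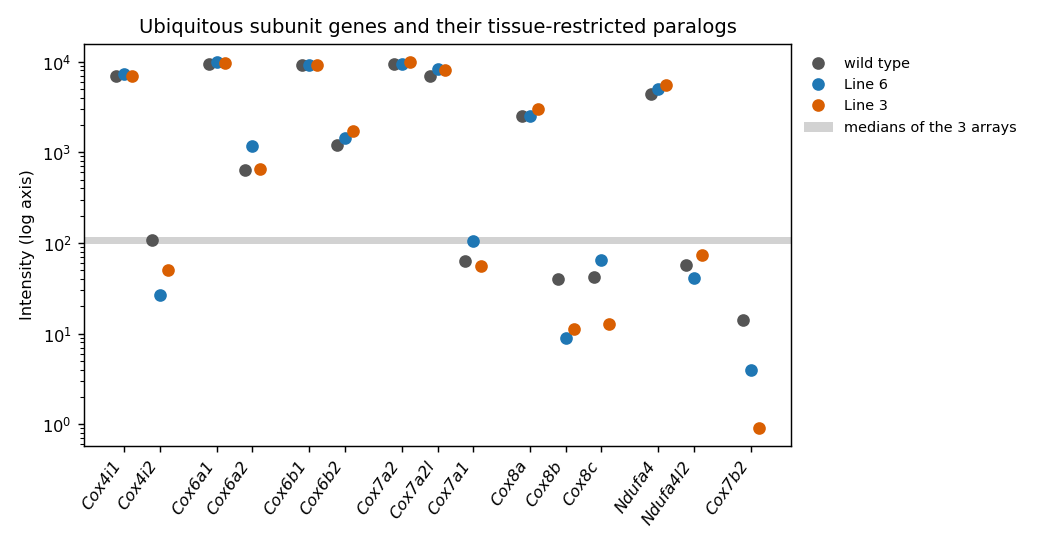
Intensity on a log axis of ubiquitous subunit genes and their tissue-restricted paralogs on the wild type (grey), Line 6 (blue) and Line 3 (orange) arrays, 1 point per array; the grey band spans the medians of the 3 arrays, 96.2 to 116. Ubiquitous genes such as Cox4i1 and Cox6b1 have nearly coincident points, Cox6a2 is higher in Line 6 alone, and Cox4i2, Cox7a1, Cox7b2, Cox8b, Cox8c and Ndufa4l2 lie in or below the band; levels of different genes come from different probe sets and are not comparable with each other.

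Complex V, the ATP synthase, had 16 of 17 members above wild type in Line 3 (54.0% of all genes), with a median of 0.14. In Line 6, 13 of 17 were above it (55.2%), with a median of 0.075 that centring turned to -0.16. In the rotor, Atp5g1, Atp5g2 and Atp5g3 encode the same mature c subunit. Atp5g1 measured 3021 in the wild type, 3315 for Line 6 and 4470.0 for Line 3, with 0.13 for Line 6 and 0.56 for Line 3, the widest Line 3 difference of the 81 members upward. Atp5g2 measured 3194 in the wild type, 3639 for Line 6 and 4025 for Line 3 and Atp5g3 measured 7634 in the wild type, 8392 for Line 6 and 9304 for Line 3, with 0.19 for Line 6 and 0.33 for Line 3 and 0.14 for Line 6 and 0.28 for Line 3. All 3 genes ran in the order wild type, Line 6, Line 3.

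In the catalytic head, the alpha subunit gene Atp5a1 measured 13689 in the wild type, 14290.2 for Line 6 and 14226 for Line 3, with 0.062 for Line 6 and 0.055 for Line 3. A dimmer Atp5a1 probe set gave 0.19 for Line 6 and 0.41 for Line 3. The beta subunit gene Atp5b measured 8396 in the wild type, 9828 for Line 6 and 9233 for Line 3 and was highest in Line 6, with 0.23 for Line 6 and 0.14 for Line 3. Genes of the central stalk, Atp5c1 (gamma), Atp5d (delta) and Atp5e (epsilon), gave 0.019 for Line 6 and 0.11 for Line 3, 0.075 for Line 6 and 0.31 for Line 3 and 0.25 for Line 6 and 0.27 for Line 3.

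The peripheral stalk holds the head still against the rotor, and its genes lay near wild type by their brightest probe sets. Atp5pb (subunit b) measured 4193 in the wild type, 3899 for Line 6 and 4191 for Line 3, so that Line 6 was the lowest array by -0.10 and the other arrays were level. Atp5j (coupling factor 6) measured 8155 in the wild type, 7911 for Line 6 and 8336 for Line 3, with -0.044 for Line 6 and 0.032 for Line 3. Atp5h (subunit d) gave 0.053 for Line 6 and 0.063 for Line 3, and Atp5o, which joins stalk and head, gave 0.070 for Line 6 and 0.14 for Line 3. Second probe sets gave Line 3 differences of 0.34 for Atp5o, 0.16 for Atp5h and -0.088 for Atp5pb.

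Of the small membrane subunits, the proteolipid Atp5mpl measured 4811 in the wild type, 5211 for Line 6 and 6414 for Line 3, with 0.12 for Line 6 and 0.41 for Line 3. Atp5l (subunit g) measured 3305 in the wild type, 3235 for Line 6 and 3804 for Line 3, with -0.031 for Line 6 and 0.20 for Line 3, and Atp5md, which supports dimer formation, measured 6185 in the wild type, 6943 for Line 6 and 6648 for Line 3, with 0.17 for Line 6 and 0.10 for Line 3. Atp5j2 (subunit f) gave 0.12 for Line 6 and 0.14 for Line 3 and Atp5k (subunit e) gave -0.019 for Line 6 and 0.047 for Line 3.

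The size of the Line 3 difference was set against brightness. The 9 members with a mean intensity under 300 had a median of -0.35 in Line 3, and other genes of that range had -0.0077. From 300 to 3000, 15 members had 0.21 against 0.13 for other genes, and 15 of 15 lay above wild type. From 3000 to 6000, 26 members had 0.22 against 0.043, with 25 of 26 above. At 6000 and over, 31 members had 0.10 against -0.029, with 27 of 31 above, against 194 of 424 other genes. The members lay above other genes of like brightness in Line 3 in each range but the dimmest, which holds 6 of the 8 paralogs. In Line 6 the medians of members were -0.35, 0.063, 0.080 and 0.053 from the dimmest range up, and those of other genes 0.043, 0.053, 0.018 and 0.016.

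**Figure D3:**
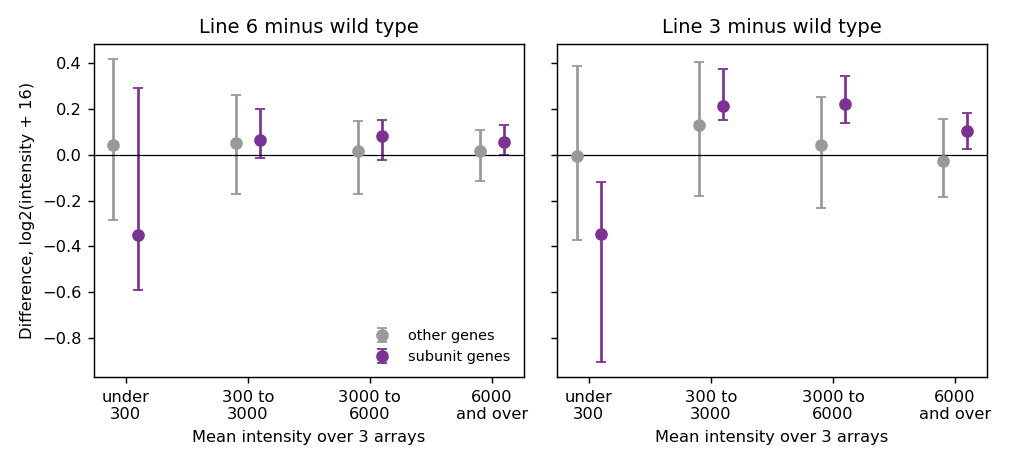
Median difference from wild type (points) with the lower and upper quartiles (bars) in 4 ranges of mean intensity, for subunit genes (purple) and other genes (grey), Line 6 on the left and Line 3 on the right. In Line 3 subunit genes lie above other genes in the 3 upper ranges, with medians of 0.21, 0.22 and 0.10 against 0.13, 0.043 and -0.029, and the range under 300, with 9 subunit genes, has the widest bars; centring on array medians takes the Line 6 member median over all ranges below 0.

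Probe sets of the same gene gave a check inside each array. A second probe set above the median on all arrays existed for 42 members, and it had the same sign as the brightest in Line 3 for 36 of 42, the others being Cox6b1, Ndufa3, Ndufb2, Ndufs4, Uqcrb and Uqcrq. Over all genes the sign was the same in Line 3 for 3817 of 4898. In Line 6 the sign was the same for 29 of 42 members and 3618 of 4898 genes. The member medians in Line 6 were 0.055 for the brightest and 0.019 for the second. The second gave the higher Line 3 difference for 27 of 42 (64.3%), against 2264 of 4898 genes (46.2%), and the medians over the 42 were 0.14 for the brightest and 0.18 for the second. The second was at least 1.2-fold higher in Line 3 for 15 of these members and the brightest for 9, against 1530 and 1600 of 4898 genes. Sdha gave 0.12 and 0.35, Atp5j2 0.14 and 0.39, and Atp5k 0.047 and 0.36. Ndufb2 went the other way, with 0.42 by the brightest and -0.011 by the second. Ndufs4, an accessory subunit near the core, gave 0.079 and -0.45, with second values of 1286 in the wild type, 732 for Line 6 and 938 for Line 3.

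**Figure D4:**
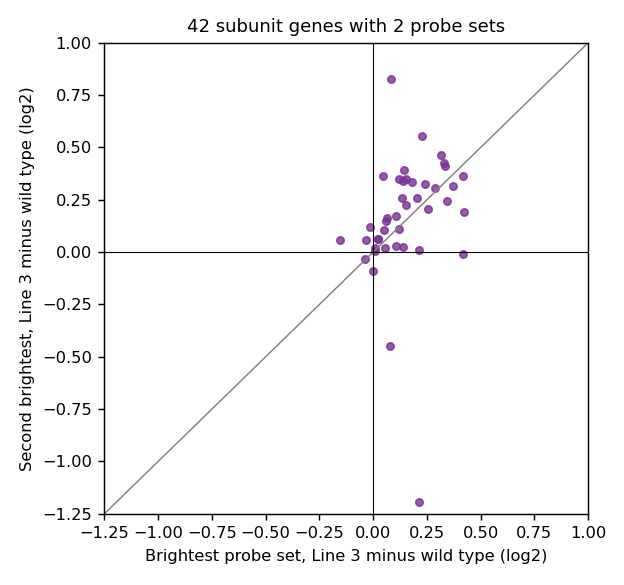
Line 3 minus wild type on the log2(intensity + 16) scale by the brightest (horizontal) and the second brightest probe set (vertical) of 42 subunit genes, with the line of equality. Most points lie right of and above 0, 27 of 42 lie above the line, and the points farthest below it are Uqcrq (0.21 and -1.20), Ndufs4 (0.079 and -0.45) and Ndufb2 (0.42 and -0.011).

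Other genes of the pathway were grouped by function into 12 lists. Over all genes, 55.2% lay above wild type in Line 6 and 54.0% in Line 3, and 28.5% and 32.5% were at least 1.2-fold higher. The genes named as highest and lowest of a list are so by the mean of both line differences. The Line 3 medians of these lists stayed above 0 under quantile normalization, centring on array medians and cyclic loess, and the Line 6 medians were all negative under centring but for complex I assembly factors. Assembly factors build the complexes and are not part of them. Complex I assembly factors had 11 of 14 genes above wild type in each line, with medians of 0.27 and 0.61 that centring on array medians took to 0.030 and 0.58, and 7 and 10 of them were at least 1.2-fold higher. Timmdc1, a membrane-arm assembly factor, measured 444 in the wild type, 805 for Line 6 and 714 for Line 3, with 0.84 for Line 6 and 0.67 for Line 3. Acad9, part of the complex that assembles the membrane arm, measured 565 in the wild type, 588 for Line 6 and 930.2 for Line 3, so that Line 3 alone was higher. Foxred1, a later factor, was among the lowest at -0.29 for Line 6 and -0.043 for Line 3. No assembly factor passed 2-fold.

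The factors of the other complexes differed less in Line 6. The share of all genes at least 1.2-fold higher in Line 3 was 32.5%. Complex III assembly factors had 4 of 6 at least 1.2-fold higher in Line 3 with a median of 0.45, led by Uqcc2 (0.30 for Line 6 and 0.67 for Line 3), which aids cytochrome b synthesis, and the lowest was Lyrm7 (-0.16 for Line 6 and 0.14 for Line 3), a chaperone of the Rieske protein. Complex V factors had 3 of 3, with a median of 0.55, from Atpaf2 (-0.14 for Line 6 and 0.35 for Line 3), which binds the alpha subunit, to Tmem70 (0.48 for Line 6 and 0.70 for Line 3), which aids c ring assembly. Complex II factors had medians of 0.058 and 0.24, of which the first was negative under all 3 other scalings, from Sdhaf2 (-0.17 for Line 6 and -0.14 for Line 3), which aids flavination of Sdha, to Sdhaf4 (0.38 for Line 6 and 0.73 for Line 3). Complex IV factors were nearest to level, with medians of -0.016 for Line 6 and 0.14 for Line 3. At least 1.2-fold higher in Line 3 were 5 of 17, near the share of all genes. Lrpprc, which stabilises mitochondrial messenger RNA, was 0.15 for Line 6 and 0.51 for Line 3, and Coa7, a factor between the membranes, was -0.31 for Line 6 and -0.043 for Line 3.

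Of 12 respiratory genes outside the symbol rule, 10 lay above wild type in Line 3, with a median of 0.22. Ndufab1, the acyl carrier subunit of complex I, measured 2374 in the wild type, 2670.2 for Line 6 and 3338 for Line 3, with 0.17 for Line 6 and 0.49 for Line 3. Cyc1, the cytochrome c1 of complex III, and Cycs, cytochrome c, gave 0.11 for Line 6 and 0.18 for Line 3 and 0.030 for Line 6 and 0.15 for Line 3. Aifm1, which takes part in import of respiratory subunits, measured 1141 in the wild type, 1359.6 for Line 6 and 1709 for Line 3, with 0.25 for Line 6 and 0.58 for Line 3, and the testis form Cyct was dim (10.7 in the wild type, 5.74 for Line 6 and 5.74 for Line 3).

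Mitochondrial ribosomal proteins, which make the subunits encoded in mitochondrial DNA, lay above wild type in Line 3 for 74 of 76 genes, with medians of 0.16 in Line 6, which centring turned to -0.078, and 0.43 in Line 3. In Line 3, 57 of 76 were at least 1.2-fold higher and 1 lower, where 32.5% and 25.9% of all genes were. Mrpl21, highest by the mean of both lines, measured 1123 in the wild type, 1515 for Line 6 and 2294 for Line 3, and Mrpl33 was the lowest at -0.33 for Line 6 and -0.49 for Line 3. Genes of the import machinery had 15 of 23 at least 1.2-fold higher in Line 3 and a median of 0.34, from Timm10b (-0.33 for Line 6 and -0.42 for Line 3) to Timm10 (0.43 for Line 6 and 0.74 for Line 3), both carriers of membrane proteins across the intermembrane space. Cytosolic ribosomal proteins had 8 of 46 at least 1.2-fold higher in Line 3 and a median of 0.16, from Rpl3l (-0.47 for Line 6 and -1.18 for Line 3) to Rpl14 (0.54 for Line 6 and 0.86 for Line 3).

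Tricarboxylic acid cycle enzymes, which supply the NADH and succinate, had 12 of 13 genes above wild type in Line 3, with medians of 0.17 in Line 6, which centring turned to -0.062, and 0.28 in Line 3. Idh2, the mitochondrial NADP-dependent isocitrate dehydrogenase, measured 1709 in the wild type, 2199 for Line 6 and 3247 for Line 3, with 0.36 for Line 6 and 0.92 for Line 3. Suclg2, a succinyl-CoA ligase subunit, had 0.67 for Line 6 and 0.74 for Line 3, and Mdh2, malate dehydrogenase, was the lowest at -0.0062 for Line 6 and -0.038 for Line 3. Glycolytic enzymes had a median of -0.12 in Line 6 and 0.097 in Line 3. In Line 3, 6 of 17 were at least 1.2-fold higher and 2 lower (32.5% and 25.9% of all genes). Aldoc, an aldolase isoform, differed by 0.78 for Line 6 and 1.05 for Line 3, and Hk3, a hexokinase known from myeloid cells, was the lowest of the list at -0.73 for Line 6 and -0.48 for Line 3. Pkm, pyruvate kinase, measured 9101 in the wild type, 6677 for Line 6 and 6101 for Line 3.

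Regulators of mitochondrial biogenesis were split in sign, with 10 of 18 genes above wild type in each line. Their medians were 0.082 in Line 6, which centring turned to -0.15, and 0.070 in Line 3. At 1.2-fold, 6 were higher and 1 lower in Line 6 (28.5% and 22.3% of all genes). In Line 3, 8 were higher and 2 lower (32.5% and 25.9%). Higher in both lines were, among others, Tfam (0.54 for Line 6 and 0.39 for Line 3), Tfb1m (0.34 for Line 6 and 0.59 for Line 3) and Polrmt (0.30 for Line 6 and 0.50 for Line 3). The genes of NRF1, GABPA and YY1, whose sequences were searched above, were slightly below wild type in Line 3. Nrf1 measured 956 in the wild type, 1014 for Line 6 and 889 for Line 3, Gabpa measured 1749 in the wild type, 1591 for Line 6 and 1612 for Line 3 and Yy1 measured 4533 in the wild type, 4229 for Line 6 and 3813 for Line 3, with Line 3 differences of -0.10, -0.12 and -0.25. The coactivator Pprc1 measured 726 in the wild type, 1020.2 for Line 6 and 1113 for Line 3, with 0.48 for Line 6 and 0.61 for Line 3, the highest mean of the list. Myc, a transcription factor known to induce mitochondrial genes, measured 2254 in the wild type, 2384 for Line 6 and 4059.5 for Line 3 and so stood apart in Line 3. Esrra, a nuclear receptor that acts on respiratory genes, measured 298 in the wild type, 180.0 for Line 6 and 186 for Line 3 and was lower in both lines (-0.68 for Line 6 and -0.63 for Line 3), and Ppargc1a, the coactivator PGC-1alpha, was dim (7.18 in the wild type, 29.99 for Line 6 and 7.38 for Line 3). None of the 18 passed 2-fold.

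**Figure D5:**
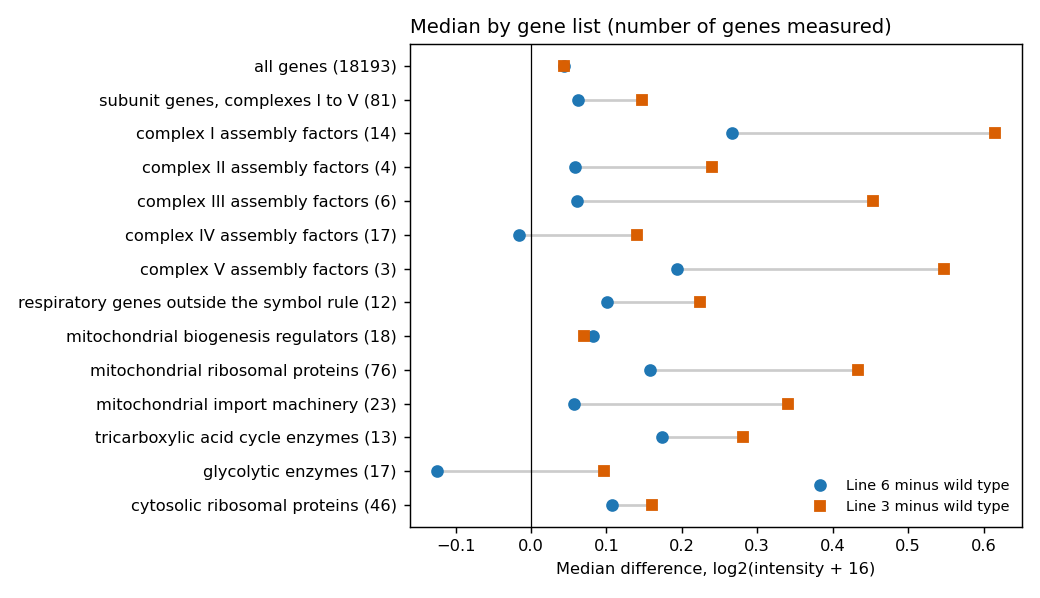
Median difference from wild type for the subunit genes, all genes and 12 related lists, with the number of genes measured in brackets, in Line 6 (blue circles) and Line 3 (orange squares). The Line 3 medians of complex I assembly factors (0.61) and mitochondrial ribosomal proteins (0.43) lie to the right of that of the subunit genes (0.15), and the Line 6 median of the subunit genes (0.062) turns to -0.17 when arrays are centred on their medians.

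Marker genes of several cell types differed between the arrays as well. All 12 neutrophil genes measured were lower in both lines despite the gate against lineage markers, with medians of -0.87 for Line 6 and -1.30 for Line 3, sums of 163953, 109731 and 84583 in wild type, Line 6 and Line 3, and 12 of 12 above the array median on each array. All 9 stem and progenitor genes were higher in both lines, with medians of 0.75 and 1.11 and sums of 2832, 4825 and 6365. Of these, 5 lay above the array median in wild type and 7 in each line, and Slamf1 and Tek below it on every array. Mast cell and basophil genes had medians of 0.28 and 1.36 and sums of 14884, 14867 and 26228, with 6 of 6 above the array median on each array. Of these, Hdc was lower in both lines (-0.75 for Line 6 and -0.51 for Line 3). Macrophage genes had sums of 12485, 16007 and 18611, with medians of 1.005 and 1.35, 8, 9 and 9 of 10 above the array median and Marco below it on every array. Csf1r (-0.28 for Line 6 and -0.13 for Line 3) and Cd68 (-0.41 for Line 6 and -0.34 for Line 3) were lower in both lines. Erythroid genes had sums of 31687, 33123 and 27969 with 7 of 8 above the array median on each array and Hba-a1 at 17.8 or less. T cell genes had 1432, 1818 and 1505 with 5 of 5 above. Adipocyte genes had sums of 119, 156 and 134, with Cidea at 2.47 or less, and 1 of 4, Adipoq in Line 6, above an array median. The part of these cell types in the differences of the subunit genes was not tested.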

How the data were processed

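RNA of 3 samples was measured on 1 array each. Per the labels' protocols, RNA was taken up in Trizol, amplification used the Ovation Pico WTA System, and biotin labelling started from 3 ug of RNA. The deposited values are intensities per probe set on a linear scale, with their summary method and software not given in the sources used. The deposited intensities had been scaled before deposit, since the mean after trimming 2% at each end was 497 on every array. The medians of the wild type, Line 6 and Line 3 arrays were 96.2, 116 and 99.0.

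The platform annotation paired 34945 of 45037 probe sets with 1 gene symbol, 932 with several and 9160 with none listed, and 34741 were named through Entrez identifiers in RefSeq. Each gene was represented by its brightest single-symbol probe set, with a pseudocount of 16 and a limit of 2-fold, and 1.2-fold as a smaller one. Dim genes were not filtered out of the main counts.

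Members, lists, tests and limits were chosen with earlier results of these data known. In full are given, per complex, the members highest and lowest by the mean of both differences, those past 1.5-fold and the isoform families. Of other lists the highest, the lowest and any assembly factor or regulator past 2-fold are given. Further genes (among them Acad9, Nrf1, Gabpa, Yy1, Tfam, Tfb1m, Polrmt, Myc, Ppargc1a, Pkm and Cycs) were named after their values were seen. Alternatives were quantile normalization, centring on array medians, cyclic loess, pseudocounts of 1 and 64, the median of probe sets, plain _at probe sets, filters on dim genes, annotation symbols, other fold limits and a limma fit of pooled lines. The second brightest probe set and the removal of the paralogs were added after the data were seen. The number of arrays limits the precision. Only the taking of differences was tried on simulated gene values with known changes. Probe set choice, gene lists, normalization and the promoter search were not part of that trial. The software was Python 3.11.15, numpy 2.4.6, pandas 2.3.3, matplotlib 3.10.9, R 4.3.3 and limma 3.58.1.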

Additional observations from a re-analysis of the deposited data

How the results depend on the processing

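The Line 3 median of the subunit genes stayed within the move counted here (0.1) under all 12 alternatives. The count above wild type stayed within 1.5 times, a limit too wide to be a strict check on 69 of 81. It was 62 of 81 under centring on array medians, 72 of 81 under quantile normalization and 52 of 65 with plain _at probe sets. Annotation symbols renamed 0 members, so they could not move a member count. The Line 6 median stayed within 0.1 under 11 alternatives. It turned to -0.17 when arrays were centred on their medians, with 10 members above wild type, and the median between the lines then became 0.30. The centring by construction lowers every Line 6 value alike. By the brightest probe sets counts past 2-fold rest on dim paralogs, and these counts moved most. In the order Line 6, Line 3 and between the lines, they were 0, 0 and 0 with a pseudocount of 64, at or above percentile 75 and without the 8 paralogs, and 1, 0 and 0 with the filter at the array median. With a pseudocount of 1, Line 3 had 4 and the difference between the lines 2. Cyclic loess gave 1 in Line 3, and the median of probe sets gave 1 in Line 3 and 0 between the lines. Plain _at probe sets and the second brightest probe set each gave 3 in Line 3, with Uqcrq (-1.20) added. A limit of 1.5-fold gave 5, 4 and 5, and one of 1.2-fold gave 14, 29 and 16. No paired analysis was possible because each genotype had 1 array. A limma fit that took both lines as 2 samples of 1 group against the single wild type array called 0 of 81 members and 0 of 18193 genes at an adjusted p under 0.05 (smallest 0.433), and 3 members (3.70%) and 2012 genes (11.1%) at an unadjusted p under 0.05, with the spread taken from the lines alone. Low signal limits the paralogs, for which no detection calls were used.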
